A study of Mus musculus with 6 samples.

Results

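The cytosolic ribosomal protein genes encode the protein components of the small and large subunits of the ribosome. They were represented here by 45 of the 12393 genes that had a probe set of their own on the Affymetrix array, or 96 of the 22626 probe sets tested. A probe set was a member when the platform annotation gave it a single gene symbol, and that symbol was Rpl, Rps or Rplp followed by a number with or without a letter, or Rpsa. The arrays came from miR-155 KO mice and WT mice, both on the C57BL/6 background, with 3 arrays for each genotype and, by the series text, a separate mouse behind each array. High signals of both Xist and Y-linked genes on both replicate 3 arrays, given further on, put the single mouse in doubt for those arrays. CD4+ T cells had been taken from spleen and lymph nodes with CD4 beads and activated in culture for 3 days with CD3 and CD28 antibodies, each given as 1 µg/mL, and with 20 U/mL of IL-2. KO and WT cells thus shared the strain, the bead isolation, the activation and the IL-2, and differed by the deletion of miR-155, a microRNA that T cells make in larger amounts after activation. The KO mice were an earlier published line, named in the series text by its report. The age and sex of the mice were not given in the labels.

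A cytosolic ribosome is built from ribosomal RNA and, for most ribosomal proteins, a single copy of each, so growing cells make these proteins in large and balanced amounts. Most vertebrate ribosomal protein mRNAs start with a C followed by a run of pyrimidines, the 5′ terminal oligopyrimidine (TOP) tract, through which the kinase mTOR and the RNA-binding protein LARP1 control how much of the mRNA is translated. An activated T cell grows before it divides, and ribosome production is a large part of that growth. Array values measure the mRNA and say nothing of translation.

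The microRNA that the KO mice lack is shown because it is the difference between the groups. The start sites of ribosomal protein genes are shown because some have a pyrimidine run near the annotated start and others do not. The mature miR-155-5p from RefSeq lies at chr16:84714143-84714165 on the plus strand of GRCm38.p6, and capitals mark its seed, bases 2 to 8.
mmu-miR-155-5p: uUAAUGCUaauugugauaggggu
RefSeq promoter windows on the same build, from 250 bases before to 50 after an annotated start, were matched for 39 of the 45 genes. Rpl7, Rpl8, Rps14, Rps20, Rps29 and Rps4l had no match. In the 30-base stretches that follow, base 16 is the annotated first base of the transcript, and capitals mark a C followed by at least 5 further bases that are C or T, within 10 bases of the start.
Rps6 (chr4:86857353-86857382, minus strand): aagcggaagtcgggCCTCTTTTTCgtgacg
Rps18 (chr17:33955651-33955680, minus strand): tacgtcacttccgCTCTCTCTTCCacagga
Rps27 (chr3:90213634-90213663, minus strand): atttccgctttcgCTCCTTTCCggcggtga
Rpl35 (chr2:39005117-39005146, minus strand): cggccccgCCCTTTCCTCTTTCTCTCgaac
Rpl38 (chr11:114668565-114668594, plus strand): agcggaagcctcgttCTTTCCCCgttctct
Rplp2 (chr7:141447636-141447665, plus strand): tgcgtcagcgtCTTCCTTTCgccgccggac
Rpl27a (chr7:109519180-109519209, plus strand): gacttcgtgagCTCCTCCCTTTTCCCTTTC
Rps27l (chr9:66946071-66946100, plus strand): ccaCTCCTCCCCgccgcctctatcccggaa
Rpsa (chr9:120127751-120127780, plus strand): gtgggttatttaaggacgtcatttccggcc
Rplp0 (chr5:115559452-115559481, plus strand): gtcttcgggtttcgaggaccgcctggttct
Rpl37 (chr15:5116598-5116627, plus strand): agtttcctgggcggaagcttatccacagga
The last 3 are shown as genes in which the search found no such run near the annotated start. The run marked for Rps27l ends before base 16, and a further annotated start of Rps27l had none. The search rests on the annotated start and also counts runs that end before it. It does not show whether an mRNA has a TOP tract.

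The pyrimidine run was common near the annotated starts of ribosomal protein genes. It was found, on the transcript strand, in 25 of the 39 matched genes (64.1%), against 26.6% of 27025 genes with a RefSeq promoter window. A stricter form, a C at the annotated first base and at least 4 pyrimidines after it, was found in 8 of 39 genes (20.5%), against 3.01% of all genes. CCGGAAG, the letters bound by ETS family factors, was searched on both strands over the whole window and was found in 20 of 39 genes (51.3%), against 9.93% of all genes. Its reverse complement begins with pyrimidines, so that it can overlap the run. TATAAA was found in 12.8% of the ribosomal protein genes and 15.7% of all genes, and AAGATGG, the core bound by YY1, in 15.4% and 7.28%, both on either strand. These matches describe letters and not bound sites. The median KO minus WT difference of the genes with the run was -0.011 (25 genes) and that of the genes without it was 0.0030 (14 genes), in log2 units as defined in the next paragraph.

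Values were the deposited log2 signals, and a difference is the mean of the KO arrays minus the mean of the WT arrays on that scale. The median signal of an array lay between 6.44 and 6.48. Mir155hg, the transcript that carries miR-155, read 3.51, 3.89 and 4.45 in KO cells against 7.69, 6.59 and 8.21 in WT cells, so the genotype labels matched this gene on all 6 arrays. No probe set passed limma's test at an adjusted p under 0.05 after Benjamini-Hochberg adjustment over all 22626 (0.0% called), and 1482 (6.55%) had an unadjusted p under 0.05. Of these, 729 (3.22%) were higher and 753 (3.33%) lower in KO. Some arrays stood apart from their group. KO replicate 1 had the lowest signal of 21 of 23 cell-cycle probe sets and the highest of all 14 hypoxia probe sets, and WT replicate 1 the highest of 40 of 52 ribosome assembly probe sets. An Xist probe set read 11.14, 2.85 and 9.47 on KO arrays and 10.24, 3.12 and 11.30 on WT arrays, and the Y-linked gene Eif2s3y read 3.50, 10.41 and 10.05 on KO arrays and 3.44, 10.51 and 10.21 on WT arrays. Replicates 1 were thus high in Xist alone, replicates 2 in the Y-linked gene alone, and replicates 3 in both, and whether replicates 3 hold RNA of more than 1 mouse was not tested. The T cell gene Cd3d lay between 13.28 and 13.43 on the KO arrays and between 12.82 and 13.34 on the WT arrays. Of 38 probe sets for lineage markers (CD4 and CD8 T, B, myeloid, NK and erythroid), 2 had an unadjusted p under 0.05 with limma. Both were for Cd28 and both were higher in KO. WT replicate 1 was the lowest array for 6 of the 9 probe sets of CD4 T cell markers. In bulk RNA of this kind, fewer cells of a type and less RNA per cell cannot be told apart.

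Ribosomal protein mRNAs did not differ detectably between miR-155 KO and WT T cells. Their bright probe sets gave narrower limits on a difference in array signal than their dim ones. None of the 96 probe sets passed the adjusted test with limma, and the smallest adjusted p among them was 0.705. At an unadjusted p under 0.05 there was 1 of 96 (1.04%, against 6.55% of all probe sets), the Rps4l probe set, which was lower in KO. The median difference of the 96 was -0.0072, beside 0.0022 over all probe sets, with 44 higher and 52 lower in KO. The quartiles of the members were -0.055 and 0.036, and those of all probe sets -0.136 and 0.125. The 95% interval of the difference left out a change of 1.5-fold in either direction for 77 of 96 members (80.2%), and for 63.4% of all probe sets. The members ranged from -0.57 to 0.28, and 2 had a difference of more than 0.5 in size.

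Many of these probe sets were at the top of the array's signal scale. Signals above 14 were found for 44 members, when the highest signal on any array was 14.79, and 59 members were above the 99th percentile of all probe sets, 13.26. Of the 100 brightest probe sets, 37 were members and a further 43 carried several gene symbols with a ribosomal protein among them. Members divided into a bright set of 67 probe sets from 34 genes and a dim set of 29 from 22 genes, with no member between 10.97 and 12.17. The dividing line of 12 was set after the signals were seen. Signals near the upper end of an array's range can be compressed, as can signals pulled to a common distribution by normalization, and whether that happened here was not tested. In 11 genes bright and dim probe sets stood side by side. Rps18, a protein of the small subunit head, had probe sets with mean signals of 14.46 and of 4.60, which reflect different probes and not different levels of the gene.

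**Figure D1:**
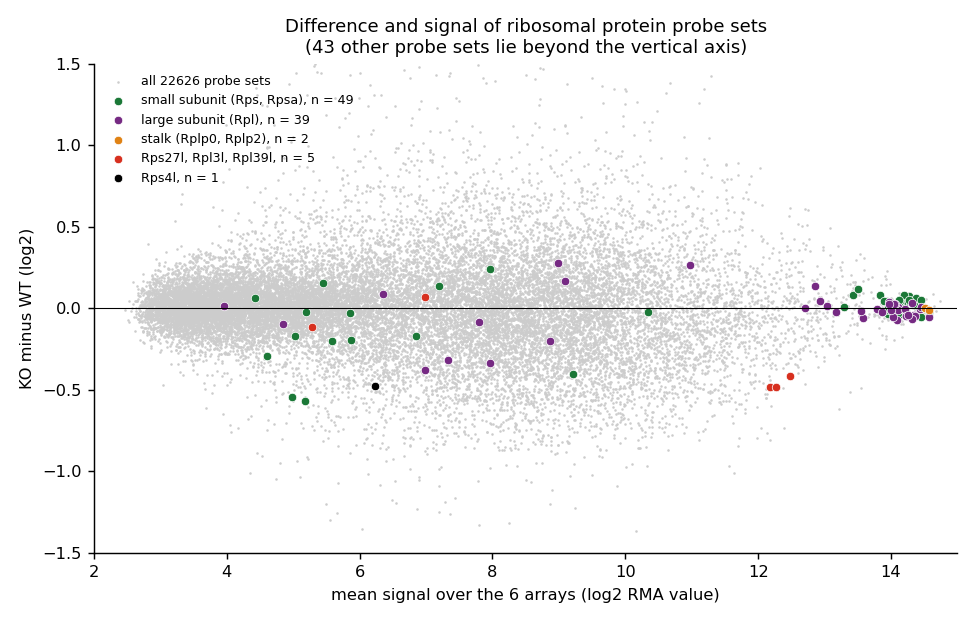
KO minus WT difference (log2) against mean signal over the 6 arrays (log2) for the 96 ribosomal protein probe sets and for all probe sets. The bright members, above a signal of 12, lie close to 0 apart from the 3 Rps27l probe sets, and the dim members spread from -0.57 to 0.28.

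Apart from Rps27l, which is described further on, the bright set consisted of 64 probe sets from 33 genes, and their differences were small. They ran from -0.074 to 0.14 with a median of 0.0034, 34 of them higher and 30 lower in KO. For all 64 the 95% interval left out a 1.5-fold change, and the median width of the interval on either side was 0.22. The median residual SD between arrays of a genotype was 0.047 for these probe sets, against 0.136 for the 527 other bright probe sets and 0.177 for all probe sets. Among the 527 other bright probe sets, 72.7% had intervals that left out a 1.5-fold change, and their median difference in size was 0.11.

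**Figure D2:**
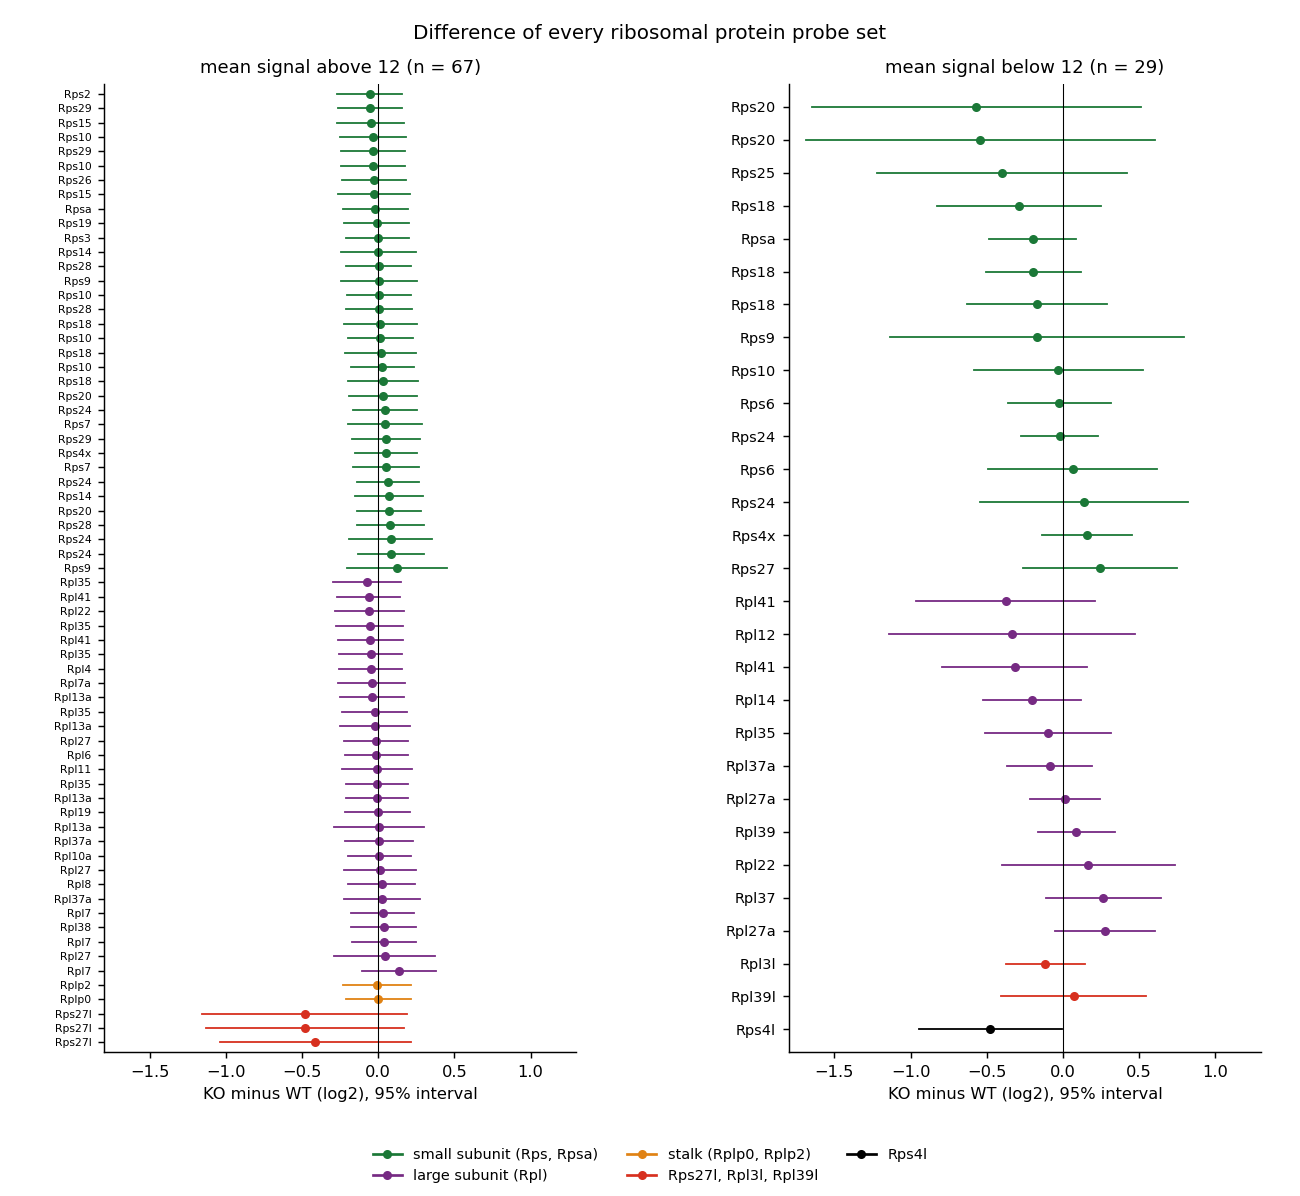
KO minus WT difference (log2) of each of the 96 ribosomal protein probe sets with its 95% limma interval, ordered by role and then by difference, with bright probe sets (mean signal over 12) in the left panel and dim ones in the right panel. All 64 bright intervals outside Rps27l lie within a 1.5-fold change in either direction, as do 13 of the 29 dim ones.

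Proteins of the small subunit were represented by 49 probe sets from 19 genes, with a median difference of 0.0047. The 34 bright ones, from 16 genes, had a median of 0.013 and ran from -0.056 to 0.12, 22 of them higher and 12 lower in KO. Rps6, the small-subunit protein phosphorylated by S6 kinase downstream of mTOR, had a probe set with signals of 10.22, 10.50 and 10.28 on KO arrays and 10.13, 10.51 and 10.43 on WT arrays. The genotypes overlapped and the difference was -0.024. A further probe set for Rps6 read 4.32, 4.83 and 4.22 on KO arrays and 4.12, 4.78 and 4.29 on WT arrays, with a difference of 0.064. Rps19, the gene most often mutated in Diamond-Blackfan anemia, read 13.96, 13.97 and 13.96 on KO arrays and 13.91, 13.98 and 14.04 on WT arrays. Its difference was -0.011, and the KO arrays lay inside the WT range.

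Rpsa, also known as the laminin receptor, is a small-subunit protein with a role at the cell surface. Its bright probe set read 14.56, 14.56 and 14.57 on KO arrays and 14.51, 14.60 and 14.64 on WT arrays. The difference was -0.020 and the KO arrays lay within the WT range. A dim probe set for the same gene read 5.46, 5.47 and 5.53 on KO arrays and 5.63, 5.54 and 5.89 on WT arrays, with every KO array below every WT array. Its difference was -0.20 (SE 0.12, adjusted p = 0.706 with limma).

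Rps20 and Rps24 had bright probe sets in which the genotypes did not overlap, though the differences were small. The brighter Rps20 probe set read 14.28, 14.34 and 14.32 on KO arrays and 14.26, 14.19 and 14.27 on WT arrays, all KO arrays above all WT arrays, with a difference of 0.072. The same ordering was seen for 3 Rps24 probe sets, with differences of 0.046, 0.064 and 0.083, and for 1 Rps4x probe set, with 0.050. None of these had an unadjusted p under 0.05 with limma. Over all 96 members, KO and WT arrays did not overlap in 8 (8.33%), 5 with KO above and 3 with KO below, against 11.7% of all probe sets (5.89% above, 5.83% below). The 3 below were Rpsa's dim probe set, 1 for Rpl41 with -0.064 and 1 for Rpl4 with -0.049. These 8 were picked out after their values were seen.

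Proteins of the large subunit were represented by 39 probe sets from 20 genes, with a median difference of -0.0080. The 28 bright ones, from 15 genes, had a median of -0.0077 and ran from -0.074 to 0.14, 11 of them higher and 17 lower in KO. Rpl11, which can bind the p53 regulator MDM2 when ribosome assembly is disturbed, read 14.12, 14.09 and 14.10 on KO arrays and 13.99, 14.16 and 14.17 on WT arrays, with a difference of -0.0080. Rpl38, whose loss in mice alters the translation of Hox mRNAs, read 14.34, 14.31 and 14.35 on KO arrays and 14.23, 14.32 and 14.35 on WT arrays, with a difference of 0.035. For Rpl11 the KO arrays lay within the WT range, and for Rpl38 the genotypes overlapped, with WT replicate 1 the lowest array of both genes.

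Rpl22 is dispensable for most translation but needed for the development of αβ T cells in mice. Its bright probe set read 13.59, 13.48 and 13.58 on KO arrays and 13.53, 13.67 and 13.63 on WT arrays, with overlapping genotypes and a difference of -0.060. A second probe set read 9.27, 8.99 and 9.25 on KO arrays and 8.51, 9.06 and 9.43 on WT arrays, with a difference of 0.17. That positive value rested on WT replicate 1, and without it the difference was -0.078. The brightest Rpl41 probe set read 14.55, 14.52 and 14.55 on KO arrays and 14.52, 14.62 and 14.63 on WT arrays, with overlapping genotypes and a difference of -0.051. Rpl41 encodes one of the smallest ribosomal proteins, and its dim probe sets had differences of -0.38 and -0.32 with overlapping genotypes. Rpl39, a small protein of the exit tunnel, had only a dim probe set, with a mean signal of 6.35, below the median signal of every array. It read 6.44, 6.32 and 6.42 on KO arrays and 6.16, 6.37 and 6.39 on WT arrays. The genotypes overlapped and the difference was 0.087.

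The largest positive differences among all members were those of Rpl27a, Rpl37 and Rps27, all from the dim set, and none passed a test. One Rpl27a probe set, for a large-subunit protein, read 9.02, 9.04 and 9.31 on KO arrays and 8.73, 8.77 and 9.04 on WT arrays. The KO arrays were higher on average, and the genotypes overlapped at the edge. The difference was 0.28 (SE 0.14, 95% interval -0.052 to 0.60, adjusted p = 0.705 with limma). A second Rpl27a probe set, the dimmest of all members with a mean signal of 3.96, had a difference of 0.013. Rpl37, a zinc-binding large-subunit protein, read 10.94, 11.26 and 11.10 on KO arrays and 10.56, 11.02 and 10.92 on WT arrays, with overlapping genotypes and a difference of 0.26 (adjusted p = 0.706). Without WT replicate 1 the Rpl37 difference was 0.13. Rps27, the small-subunit partner gene of Rps27l, read 8.53, 7.70 and 8.02 on KO arrays and 7.78, 7.82 and 7.92 on WT arrays. Its difference of 0.24 was carried by KO replicate 1 and was 0.019 without that array.

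**Figure D3:**
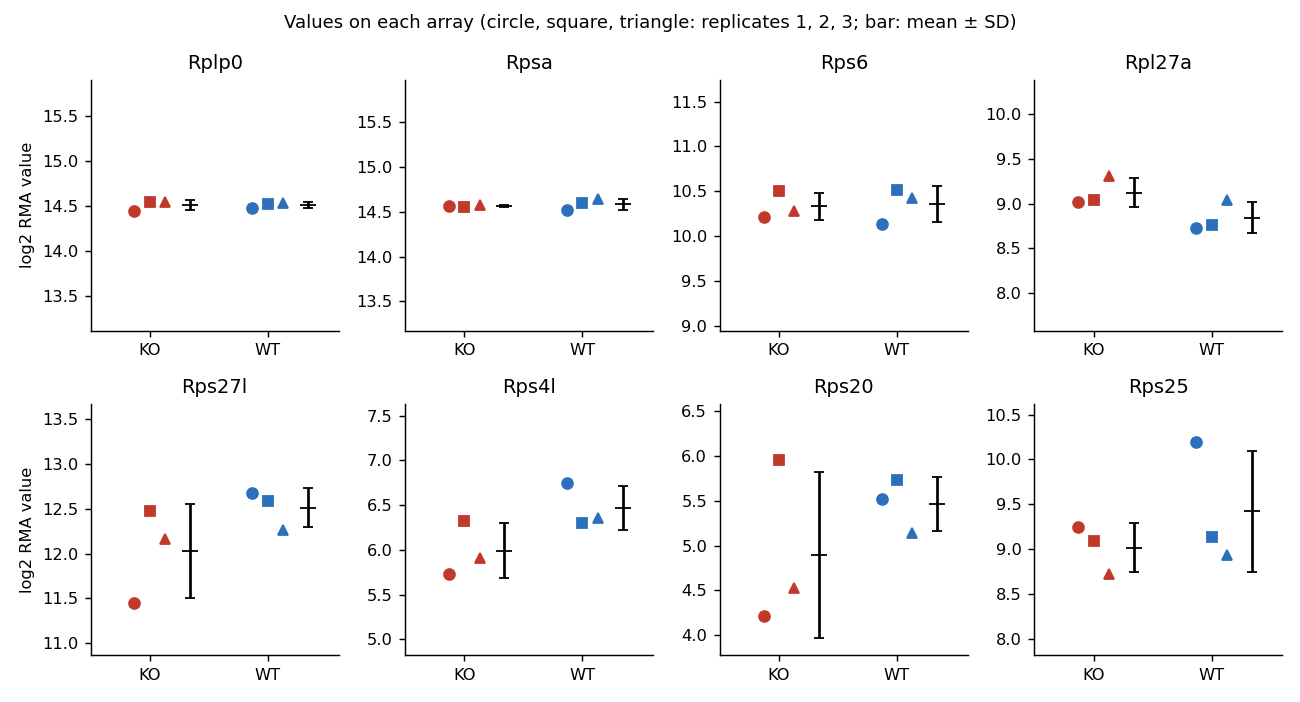
Signals (log2) on each KO and WT array for 1 probe set each of 8 ribosomal protein genes, with KO to the left of WT and a bar for the mean ± SD of each genotype (n = 3). KO replicate 1 is the lowest array for Rps27l at 11.45, and Rps4l has KO signals of 5.73 to 6.33 against WT signals of 6.30 to 6.74.

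The ribosomal stalk, through which translation factors are recruited to the large subunit, was represented by Rplp0 and Rplp2. Rplp0 read 14.44, 14.54 and 14.54 on KO arrays and 14.47, 14.52 and 14.54 on WT arrays, with a difference of 0.00076 and a 95% interval of -0.21 to 0.22. Rplp2 read 14.53, 14.60 and 14.57 on KO arrays and 14.49, 14.63 and 14.61 on WT arrays, with a difference of -0.0083. In both genes the genotypes overlapped. Of 81 protein-coding RefSeq genes whose symbols fit the naming rule, 44 were members, so the set is far from complete. Among the genes without a probe set carrying their symbol alone were Rplp1, Rpl3, Rpl5, Rpl10, Rpl10l and Rps27a, which were not analysed here.

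Rps27l, a close paralog of Rps27 that is known as a p53 target gene, had the largest differences of the bright set. Its brightest probe set read 11.73, 12.68 and 12.41 on KO arrays and 12.86, 12.78 and 12.42 on WT arrays, and the difference was -0.41 (SE 0.26, adjusted p = 0.71). A second probe set read 11.45, 12.47 and 12.16 on KO arrays and 12.68, 12.58 and 12.27 on WT arrays, with a difference of -0.48 (95% interval -1.13 to 0.17, adjusted p = 0.705). The third, with 11.33, 12.37 and 12.09 on KO arrays and 12.59, 12.50 and 12.15 on WT arrays, also had a difference of -0.48. The 3 probe sets share a gene and are not separate measurements of the condition. In each, KO replicate 1 was the lowest and WT replicate 1 the highest of the 6 arrays, and the genotypes overlapped. The median difference over the 3 was -0.18 without KO replicate 1 and -0.093 without both arrays of replicate 1, a choice made after the data were seen. Without any other single array it lay between -0.70 and -0.39. All 3 probe sets were lower in KO in each of these settings. KO replicate 1 was also the array with the lowest cell-cycle and highest hypoxia signals. The median centred signal of the 23 cell-cycle probe sets was -1.05, 0.0082 and 0.046 on KO arrays and 0.24, 0.31 and 0.35 on WT arrays, so every KO array lay below every WT array. Of these probe sets 22 were lower in KO, with a median difference of -0.56, and without KO replicate 1 there were again 22, with a median of -0.24. The median centred signal of the 14 hypoxia probe sets was 0.94 on KO replicate 1, -0.20 and -0.31 on the other KO arrays, and between -0.26 and -0.0051 on the WT arrays. The part of these in the Rps27l values was not tested.

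Rps4l, which RefSeq lists as a transcribed pseudogene, was the single member with an unadjusted p under 0.05. It read 5.73, 6.33 and 5.91 on KO arrays and 6.74, 6.30 and 6.35 on WT arrays. KO arrays were lower on average, but KO replicate 2 lay just above the lowest WT array. The difference was -0.48 (SE 0.20, 95% interval -0.95 to -0.0063, adjusted p = 0.705 with limma), so it did not pass. KO replicate 1 was the lowest array for Rps4l and WT replicate 1 the highest. The Rps4l difference was -0.35 without KO replicate 1, -0.65 without KO replicate 2 and -0.21 without both arrays of replicate 1. Rpl3l and Rpl39l are paralogs known for expression in other tissues. Rpl3l, the heart and muscle paralog of Rpl3, read 5.26, 5.18 and 5.21 on KO arrays and 5.19, 5.48 and 5.34 on WT arrays, with a difference of -0.11. Rpl39l, a testis paralog of Rpl39, read 7.30, 6.98 and 6.78 on KO arrays and 7.29, 6.73 and 6.83 on WT arrays, with a difference of 0.072 that was -0.069 without KO replicate 1. In both the genotypes overlapped.

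Within the dim set, differences were wider and more often negative. The 29 probe sets had a median of -0.099, with 10 higher and 19 lower in KO, a median residual SD of 0.276, and 13 whose intervals left out a 1.5-fold change. The most negative were both Rps20 probe sets of the dim set. One read 4.21, 5.95 and 4.52 on KO arrays and 5.52, 5.73 and 5.14 on WT arrays, with a difference of -0.57 (SE 0.45), and the other read 4.19, 5.77 and 4.18 on KO arrays and 5.30, 5.71 and 4.75 on WT arrays, with -0.54. In each, KO replicate 2 was the highest of the 6 arrays and the other two KO arrays were the lowest. Both values depended on single KO arrays: they were -1.10 and -1.07 without KO replicate 2, -0.23 and -0.28 without KO replicate 1, and -0.38 and -0.28 without KO replicate 3. The second was also -0.32 without WT replicate 2. None passed the adjusted test. The bright Rps20 probe sets had differences of 0.034 and 0.072, so the dim and bright probe sets of this gene pointed in opposite directions. A dim Rps18 probe set read 4.26, 4.68 and 4.41 on KO arrays and 5.11, 4.81 and 4.31 on WT arrays, with overlapping genotypes and a difference of -0.29, which was -0.11 without WT replicate 1 and -0.51 without WT replicate 3.

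The dim set's median depended on single arrays, most of all on WT replicate 1. Centred on each probe set's mean, the median signal of the dim set was -0.10, 0.040 and -0.065 on KO arrays and 0.21, -0.00012 and -0.038 on WT arrays. WT replicate 1 was the highest of the 6 arrays for 12 of the 29 and the lowest for 7. Over all 22032 probe sets with a mean signal under 12, it was the highest for 4418 and the lowest for 4714. Rps25 of the small subunit and Rpl12 of the large subunit, picked out after their values were seen, show a high WT replicate 1. Rps25 read 9.25, 9.09 and 8.72 on KO arrays and 10.19, 9.13 and 8.93 on WT arrays, with a difference of -0.40. Rpl12 read 7.73, 8.01 and 7.66 on KO arrays and 8.94, 7.75 and 7.71 on WT arrays, with a difference of -0.33. In both genes WT replicate 1 stood above every other array and the remaining arrays overlapped. Without it the median difference was -0.0038, and 16 of 29 were lower in KO. The median was -0.057 without KO replicate 1 and -0.17 without WT replicate 2. For the 64 bright probe sets the same array was low. Their median centred signal was -0.0046, 0.0084 and 0.0043 on KO arrays and -0.046, 0.019 and 0.031 on WT arrays. WT replicate 1 was the lowest array for 32 of these 64, and for 194 of all 594 probe sets with a mean signal of 12 or more. Without WT replicate 1, the bright median was -0.031, and without WT replicate 3 it was 0.019, so its sign depended on which WT array was used.

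**Figure D4:**
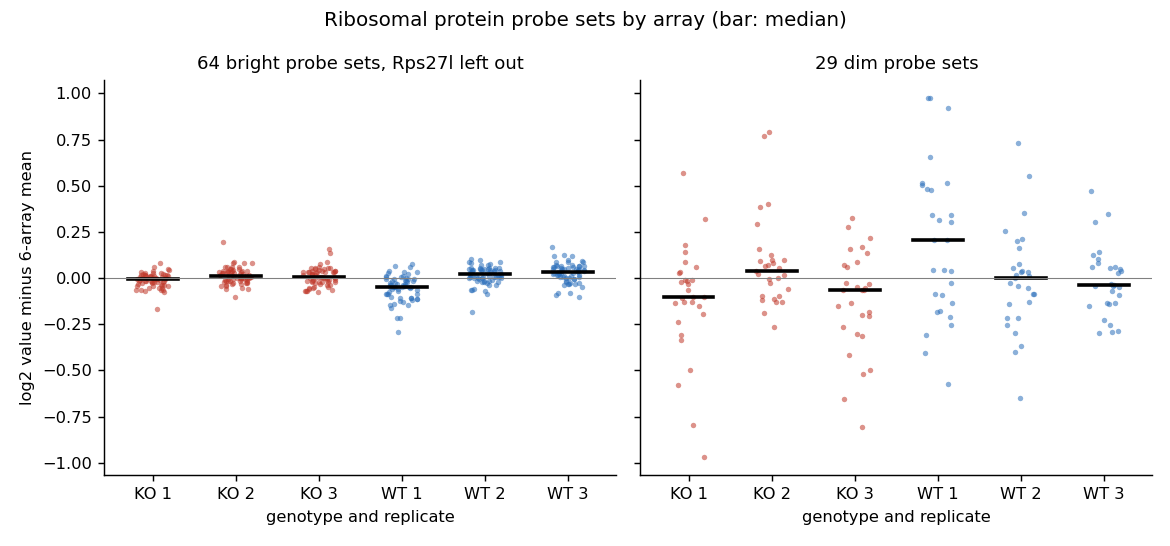
Signal (log2) of each probe set minus its mean over the 6 arrays, by array, for the 64 bright probe sets without Rps27l and the 29 dim probe sets, with KO arrays left of WT arrays and a line at each median. WT replicate 1 has the lowest bright median, -0.046, and the highest dim median, 0.21.

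Several genes had more than 1 probe set, and their directions did not always match. Of 45 genes, 22 had several probe sets, and in 12 of these the differences had both signs. A further 102 probe sets listed several symbols with at least 1 ribosomal protein among them, and these were outside the members because no single gene could be named. Their median difference was 0.00042, with 51 higher and 51 lower in KO, and 2 had an unadjusted p under 0.05, 1 in each direction, when 6.55% of all probe sets did. Probes for ribosomal proteins are prone to match processed pseudogenes, and 40 of the 96 members had an ID ending in _x_at, the suffix that marks probes which may bind other transcripts. The bright members with that suffix had a median of 0.012, and those with the _a_at suffix had -0.0074.

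Other genes of the translation machinery were read from lists, described here by counts only. Of 42 probe sets from 17 further TOP-type or translation genes, 20 had positive and 22 negative differences, with a median of -0.023. At an unadjusted p under 0.05 there were 4 of 42, all lower in KO, when 3.33% of all probe sets were lower at that threshold. The 4 came from 2 genes: 1 for Eef1d, a subunit of the elongation factor exchange complex, and 3 for Nap1l1, a histone chaperone with a TOP-type mRNA. That Eef1d probe set read 5.50, 5.71 and 5.61 on KO arrays and 6.08, 6.06 and 5.96 on WT arrays. Its difference was -0.43 (adjusted p = 0.705 with limma). Every KO array lay below every WT array, as for 5.83% of all probe sets. Brighter probe sets for Eef1d had smaller differences. One, with a KO mean of 11.98, had -0.11 with KO arrays again below WT arrays. Another, with a KO mean of 11.47, had -0.072 with overlapping genotypes. Fau, which encodes ribosomal protein S30 fused to a ubiquitin-like protein and was added for that role after its values were seen, read 14.35, 14.27 and 14.33 on KO arrays and 14.08, 14.30 and 14.38 on WT arrays.

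Translation initiation factors had a median of -0.13 over 62 probe sets from 26 genes, 14 of them higher and 48 lower in KO, and none had an unadjusted p under 0.05 with limma. Eif1ax, which helps the scanning ribosome find its start codon, had the smallest p of this list. It read 5.92, 7.17 and 6.37 on KO arrays and 7.44, 7.30 and 6.99 on WT arrays, with a difference of -0.76 (adjusted p = 0.705). Without WT replicate 1 the median of the list was -0.058, with 39 of 62 lower in KO. Without any other single array it lay between -0.18 and -0.088, with 41 to 53 lower.

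Ribosome assembly factors, which process ribosomal RNA and join ribosomal proteins to it, had a median of -0.36 over 52 probe sets from 29 genes, 7 of them higher and 45 lower in KO, and again none had an unadjusted p under 0.05. Rpf2 brings the 5S ribosomal RNA particle to the large subunit, and the differences of its probe sets had both signs. The Rpf2 probe set with the smallest p read 7.65, 8.50 and 7.84 on KO arrays and 9.18, 8.84 and 8.11 on WT arrays. Its difference was -0.71 (adjusted p = 0.705 with limma), and another Rpf2 probe set had -0.59. A further Rpf2 probe set read 7.37, 7.26 and 7.62 on KO arrays and 7.14, 7.10 and 7.44 on WT arrays. Its genotypes overlapped and its difference was 0.19. The median centred signal of the list was -0.54, 0.23 and -0.27 on KO arrays and 0.56, 0.28 and -0.24 on WT arrays, so KO replicate 1 was lowest and WT replicate 1 highest. The median was -0.19 without KO replicate 1 (47 of 52 lower), -0.17 without WT replicate 1 (42 lower), -0.59 without KO replicate 2 and -0.63 without WT replicate 3 (43 lower each). Without both KO replicate 1 and WT replicate 1, the arrays at either end for this list, it was -0.034 with 31 of 52 lower.

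The regulators of TOP mRNAs and growth, 16 probe sets from 8 genes, had 8 positive and 8 negative differences with a median of -0.015, and the smallest p belonged to Myc, the transcription factor that drives ribosome production. Myc read 10.02, 10.84 and 10.55 on KO arrays and 11.01, 10.82 and 10.79 on WT arrays, with a difference of -0.40 (adjusted p = 0.705). Larp1 read 10.14, 10.86 and 10.51 on KO arrays and 10.94, 10.95 and 10.57 on WT arrays, with a difference of -0.32. In the p53 list, which responds when free ribosomal proteins bind MDM2, 8 of 12 probe sets were higher in KO and 4 lower. Over all probe sets, 11407 of 22626 were higher. An Mdm2 probe set read 10.02, 9.27 and 9.27 on KO arrays and 9.16, 8.93 and 8.99 on WT arrays. Every KO array lay above every WT array, as for 5.89% of all probe sets. The difference was 0.49 (adjusted p = 0.705 with limma), and the highest signal was on KO replicate 1. A second Mdm2 probe set read 8.95, 7.98 and 7.97 on KO arrays and 7.88, 8.17 and 7.93 on WT arrays. Its genotypes overlapped, its difference was 0.30, and KO replicate 1 was again the highest array. Cdkn1a had a difference of 0.30 and its highest signal on the same array. The list was split on that array: KO replicate 1 was the highest for 6 of the 12 probe sets and the lowest for 4. Their median centred signal on it was -0.0066. Rpl7l1 and Rpl22l1, paralogs outside the naming rule, had differences of -0.39 and -0.44 for 2 Rpl7l1 probe sets and -0.14 for Rpl22l1. The median of these 3 probe sets was -0.39. It was -0.18 without WT replicate 1 and -0.070 without both KO replicate 1 and WT replicate 1, with all 3 lower in KO each time.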

How the data were processed

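Total RNA was labelled as biotinylated cRNA and hybridised to 6 Affymetrix arrays, each from a separate mouse by the series text, which the Xist and Y-linked signals of both replicate 3 arrays put in doubt for those arrays. The authors deposited log2 values per probe set; RMA and the affy package are named in the submitters' processing notes, without versions, and no detection calls were used here. RMA adjusts background, makes the arrays' distributions alike and summarises probes, so differences are relative to each array's other probe sets. Of 22690 probe sets, 64 controls were left out. limma 3.58.1 in R 4.3.3 (lmFit, eBayes, no trend, no filter on low values, KO against WT, two-sided) was fitted to the other 22626, with Benjamini-Hochberg adjustment over all of them. The number of arrays limits the precision. Of the probe sets, 20380 had 1 gene symbol, 691 several and 1555 none in the platform annotation, and all 45 member symbols matched RefSeq (GRCm38.p6). The fit was tested on simulated data.

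Members named with values were those with an unadjusted p under 0.05, the 3 largest differences each way, the 3 brightest and 3 dimmest, stalk genes, paralogs with their partners and genes of known roles. From each list at most 2 genes with the smallest p were named. Members and lists were chosen with earlier results of these data known. Alternatives were a replicate block, each array left out, other scalings, low-signal filters, 1 value per gene, cross-hybridising probe sets left out, trend and robust variance, array weights (statmod 1.5.0) and a looser threshold.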

Additional observations from a re-analysis of the deposited data

How the results depend on the processing

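No ribosomal protein probe set and no other probe set passed limma's adjusted test under any alternative tried, at 0.05 or at 0.1. The median difference of the members stayed between -0.031 and 0.014, within 1 SD of the value reported. The number of members with an unadjusted p under 0.05, 1 as reported, ran from 0 to 6 as single arrays were left out. It was 0 with arrays centred on their medians, 0 with the lowest 25% or 50% of probe sets left out, 0 without both arrays of replicate 3 and 7 with array weights. The count over all probe sets, 1482 as reported, ran from 680 to 3100 as single arrays were left out. It was 808 with the lowest 50% left out, 856 with the brightest probe set per gene, 865 with the mean per gene, 5283 with array weights and 686 without both arrays of replicate 1. Leaving out both arrays of replicate 1 or of replicate 3 was chosen after seeing the data. The 6 members without KO replicate 2 (6.25%, against 13.7% of all probe sets) were probe sets of Rps20, Rps27l and Rps4l. The 7 members with array weights were 7.29%, against 23.3% of all probe sets. The cause of these shifts was not tested.

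The labels give no shared source for arrays of the same replicate number. Their deviations from the genotype means correlated at -0.0078, 0.59 and 0.36, and KO replicate 1 correlated best with WT replicate 3, so the numbers were not taken as a pairing. Same-numbered arrays did match in whether Xist and Y-linked genes were high, a hint from the data and not from the design. With the number as a replicate block, 2 members (Rpl27a and Rpl37, 2.08%) had an unadjusted p under 0.05, against 2052 of all probe sets (9.07%), and none had an adjusted one. Of the 26 probe sets named by rule, 13 took the opposite sign under at least 1 alternative. With 3 arrays a genotype, a 1.5-fold change in signal lay outside the 95% interval for only 13 of the 29 dim probe sets, against 64 of 64 bright ones without Rps27l. Whether compression of high signals narrowed the bright intervals was not tested.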
